A study of Mus musculus with 267 samples.

Results

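The comparison concerned 4 chromatin immunoprecipitation sequencing (ChIP-seq) libraries of 267 samples in the series: acetylation of histone H3 at lysine 27 (H3K27ac) in unstimulated bone marrow-derived macrophages (BMDMs), 2 from Egr2fl/fl mice and 2 from LyzM-Cre+ Egr2fl/fl mice. All 4677 regions of the H3K27ac table around the EGR2 sites labelled as induced by 24 h of interleukin-4 (IL-4) were taken. None was chosen by its value in these libraries. The series followed the response of BMDMs to IL-4 in several mouse strains, and in macrophages lacking EGR2. Egr2fl/fl mice carry an Egr2 gene flanked by loxP sites on both alleles and no Cre, so these controls are intact but floxed. In LyzM-Cre+ Egr2fl/fl mice, named Egr2-deleted here, Cre driven by the lysozyme M locus removes the floxed sequence in myeloid cells, so other cells of the mouse, and macrophages that Cre missed, still carry the gene. Both groups came from females of 8 to 12 weeks, and their marrow was grown for 7 days with macrophage colony-stimulating factor (M-CSF). The basal cells received no IL-4, whereas the 24 h groups, used for comparison, received IL-4 at 20 ng/mL, with 2 libraries per genotype. Libraries of a group were biological replicates by the methods, and the labels do not say from which mice they came.

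H3K27ac is deposited on nucleosomes beside active enhancers and promoters by coactivators such as p300 and CBP, and its level follows the activity of an enhancer. EGR2 is a zinc finger transcription factor that binds GC-rich DNA. In macrophages IL-4 activates STAT6, which switches on a first set of genes, and EGR2 is among the factors produced in this response. The authors reported that, of the EGR family, unstimulated BMDMs express Egr2 alone, and that IL-4 raises it. PU.1 and C/EBPb open macrophage enhancers before any stimulus, and PPARg is a nuclear receptor of the alternatively activated macrophage. Near the EGR2 sites induced by IL-4, the authors reported that STAT6 and PPARg binding changed little on Egr2 deletion in basal cells. They reported a much larger change after 24 h of IL-4. The basal comparison asks whether the later EGR2 sites already differ in H3K27ac between the genotypes before IL-4 is added.

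The regions were 1000 bp wide and centred on the EGR2 site. By the deposited annotation 2606 were intronic and 2071 intergenic. Of the 4677, 3870 had an EGR2 peak in C57 BMDMs at 24 h alone among the times after IL-4, and 26 overlapped an EGR2 peak of basal C57 cells. The choice of sites induced by IL-4 keeps this last number small. Peaks of basal C57 cells overlapped 1947 regions for PU.1, 972 for C/EBPb, 1323 for STAT6 and 320 for PPARg. Windows of 117 regions overlapped another window, so that these shared reads.

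The EGR2 sites themselves are shown for 6 regions that were lower in Egr2-deleted cells, because their letters show which factors' motifs lie at the centre. Each run is 200 bases of the plus strand of mm10 (GRCm38.p6) around the site's centre. Capitals mark, on either strand, GTGGGNG (EGR), TGANTCA (AP-1), TTGCNNAA (C/EBP), GAGGAAGT (PU.1) and TTCNNNNGAA (STAT6). The region nearest to Cyp1b1 is chr17:79737760-79737959, and it held 1 EGR and 1 C/EBP match.
Cyp1b1: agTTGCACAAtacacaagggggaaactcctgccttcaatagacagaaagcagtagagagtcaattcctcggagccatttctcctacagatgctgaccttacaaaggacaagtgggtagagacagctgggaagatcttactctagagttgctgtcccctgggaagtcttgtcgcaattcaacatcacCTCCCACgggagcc
The site at chr7:98539755-98539954, nearest to Lrrc32, held 1 C/EBP match.
Lrrc32: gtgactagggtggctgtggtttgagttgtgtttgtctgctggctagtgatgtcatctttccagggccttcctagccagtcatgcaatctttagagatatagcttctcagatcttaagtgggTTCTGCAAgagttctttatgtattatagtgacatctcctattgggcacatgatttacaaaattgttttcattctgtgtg
At chr16:58703428-58703627, nearest to Gpr15, 1 AP-1 and 1 STAT6 match were found.
Gpr15: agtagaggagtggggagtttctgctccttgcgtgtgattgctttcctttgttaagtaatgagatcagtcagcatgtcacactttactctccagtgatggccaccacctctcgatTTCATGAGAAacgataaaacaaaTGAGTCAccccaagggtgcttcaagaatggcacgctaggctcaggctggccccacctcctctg
An intron of Mtmr7 held the site at chr8:40599450-40599649, with 1 STAT6 match.
Mtmr7: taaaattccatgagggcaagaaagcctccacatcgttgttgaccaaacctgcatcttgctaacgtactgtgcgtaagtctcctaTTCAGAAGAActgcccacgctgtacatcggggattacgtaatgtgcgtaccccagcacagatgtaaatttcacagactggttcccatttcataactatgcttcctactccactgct
Upstream of Msx3, chr7:140051849-140052048 held 1 STAT6 match.
Msx3: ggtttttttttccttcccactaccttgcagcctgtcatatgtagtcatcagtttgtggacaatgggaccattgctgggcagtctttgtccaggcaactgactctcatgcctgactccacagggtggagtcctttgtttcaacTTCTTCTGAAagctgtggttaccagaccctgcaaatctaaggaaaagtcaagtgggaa
None of the 5 motifs was found in the site nearest to Myl12b, chr17:70961058-70961257.
Myl12b: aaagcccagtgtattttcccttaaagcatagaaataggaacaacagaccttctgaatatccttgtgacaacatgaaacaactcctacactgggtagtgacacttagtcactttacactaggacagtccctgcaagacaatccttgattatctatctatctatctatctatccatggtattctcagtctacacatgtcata

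Over all 4677 sites the EGR letters were present in 49.0% of these windows, against 14.9% of windows of the same width 400 bp to one side. The shares were 21.9% and 5.41% for AP-1, 16.5% and 7.80% for C/EBP, 7.36% and 1.13% for PU.1, and 17.5% and 5.97% for STAT6. Sites with the EGR letters had a median basal log2 fold (Egr2-deleted minus control) of −0.22 (n = 2292) and sites without them −0.18 (n = 2385). The PU.1 letters went with −0.15 (n = 344) and their absence with −0.20 (n = 4333). Among the 37 regions lower by the 2.5-fold rule given below, 14 held the EGR letters (37.8%), against 49.0% of all sites. The shares of the 37 were 24.3% for AP-1, 21.6% for C/EBP, 2.70% for PU.1 and 16.2% for STAT6. These medians and shares are given as a description, with no test. The 2.5-fold rule has a filter on level, and the shares of all sites include regions below it.

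Values are tags in the region per 10000000 tags of the library, named normalized tags. The libraries held 11736009 and 14732740 tags in controls, and 9971033 and 17840330 in Egr2-deleted cells, so 16 normalized tags stood for 16 to 29 reads. Of all tags, 2.68% and 2.80% fell in the 4677 regions in controls, and 2.496% and 2.741% in Egr2-deleted cells. The median region had 17.04 and 16.29 normalized tags in the control libraries, and 12.03 and 12.89 in the Egr2-deleted libraries. Each Egr2-deleted library was therefore below each control library at the median. Replicates of one genotype differed by more than read sampling, with a chi-square per degree of freedom of 3.85 in controls and 3.25 in Egr2-deleted cells.

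The labelled cell type was checked at regions near macrophage genes. Csf1r encodes the M-CSF receptor, and a region in its body had 651 and 1000 normalized tags in controls, and 730 and 961 in Egr2-deleted cells. At 2 regions near Ctss, a lysosomal protease of myeloid cells, the libraries ranged from 213 to 562. Adgre1 encodes F4/80, and its region had 225 and 301 in controls, and 284 and 327 in Egr2-deleted cells. The groups overlapped at each of these 4 regions, the only ones near the 12 macrophage markers. No region lay near any of 8 dendritic cell markers, and regions lay near 4 of 12 neutrophil and progenitor, 6 of 7 osteoclast and 1 of 9 lymphocyte markers. For macrophage markers it was 3 of 12. Which markers had a region was set by the list of EGR2 sites, so these counts do not describe the cells. Summed normalized tags over the 4 neutrophil and progenitor regions were 74.98 and 73.31 in controls, and 63.2 and 76.2 in Egr2-deleted cells. Of these, 1 region near Kit gave 57.1 and 40.7, and 48.1 and 62.2. The region nearest to Ngp had 17.9 and 28.5, and 10.03 and 11.8, which did not overlap (log2 fold −0.99 ± 0.44, adjusted p = 0.373, limma). Of the 4, 1 was non-overlapping lower and 1 higher. Summed tags over the 6 osteoclast regions were 669 and 757, and 700 and 686. Of these, 1 region in Ctsk, the cathepsin K gene, gave 487 and 578, and 587 and 553. The median log2 fold of the 6 was −0.48, and 3 were non-overlapping lower (50.0%) and 0 higher, against 32.5% and 7.87% of all regions. Among them Dcstamp, a gene of osteoclast fusion, had 104 and 107 in controls, and 52.15 and 77.9 in Egr2-deleted cells (log2 fold −0.71 ± 0.26, adjusted p = 0.277, limma). The part of these markers in the results was not tested. The 1 lymphocyte region, 128263 bp from Gata3, had 90.3 and 86.9 in controls, and 63.2 and 61.1 in Egr2-deleted cells, which did not overlap (log2 fold −0.50 ± 0.28 SE, adjusted p = 0.528, limma).

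Egr2 was the nearest gene of 1 region, chr10:67538716-67539716, in the body of the gene and 533 bp from a transcript start. It had 50.3 and 38.0 normalized tags in controls, and 38.1 and 27.5 in Egr2-deleted cells. The groups overlapped, since the lower control library was below the higher Egr2-deleted library. The log2 fold was −0.42 ± 0.25 (SE) and did not pass the test (adjusted p = 0.569, limma). The position of the deleted part of Egr2 was not given in the sources used here, so the region does not check the deletion. The authors reported that Egr2 was efficiently deleted in BMDMs of this cross. After 24 h of IL-4 the same region had 153 and 198 normalized tags in controls, and 161 and 143 in Egr2-deleted cells. Single-library RNA polymerase II values there were 53.4 in control and 35.1 in Egr2-deleted basal cells.

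In a bulk library, fewer cells that carry the mark and a lower level per cell cannot be told apart. Without IL-4, the regions that passed the test were all lower in Egr2-deleted cells. limma on log2(normalized tags + 1), with the 4 H3K27ac groups sharing 1 estimate of the spread, called 9 of 4677 regions lower (0.192%) and 0 higher (0.0%) at an adjusted p under 0.05. At an unadjusted p under 0.05 there were 534 lower and 40 higher regions. edgeR's quasi-likelihood test on the recovered reads called 11 lower and 0 higher, and DESeq2 called 1 lower and 0 higher. The 11 of edgeR held 8 of the 9, and the region near Msx3 was not among them (adjusted p = 0.103, edgeR). The 1 of DESeq2 was the region near Trim36. The smallest adjusted p of a higher region was 0.160 by limma. With the spread taken from the 4 basal libraries alone 0 regions passed (472 at an unadjusted p under 0.05). An exact permutation test of 2 against 2 libraries cannot give a p below 0.333, so the calls rest on the pooled spread.

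A fold of 2.5 between group means (normalized tags + 1), for regions with at least 16 normalized tags in either mean, was reached by 37 lower regions (0.791%) and 1 higher region (0.0214%). Without control basal replicate 1 there were 18 lower and 12 higher, so most of the excess of lower regions in this count rested on that library. There were 101 lower and 4 higher without control replicate 2, 51 and 3 without Egr2-deleted replicate 1, and 77 and 3 without Egr2-deleted replicate 2. Both Egr2-deleted libraries lay below both control libraries at 1522 regions (32.5%), and both lay above them at 368 (7.87%). With the libraries scaled by the median ratio of the regions, these counts were 942 and 870, so the excess of lower regions in this count depended on the scaling. Among the 2406 regions with at least 16 normalized tags the unscaled counts were 822 (34.2%) and 200 (8.31%). The plot of group means shows the lower regions off the diagonal at low and middle levels, where the spread of all regions is also widest.

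**Figure D1:**
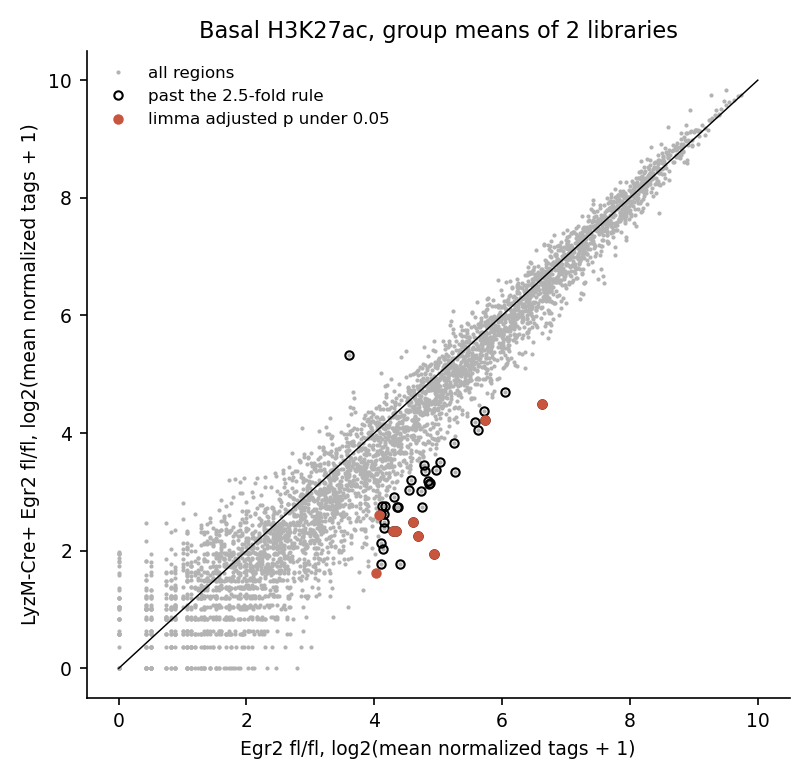
Mean basal H3K27ac of 2 libraries per genotype at all 4677 regions, as log2(normalized tags + 1), with controls on the x axis and Egr2-deleted cells on the y axis. Filled points are the 9 regions called by limma and open points the 38 regions past the 2.5-fold rule, of which 37 lie below the line of equality.

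The median log2 fold over all regions was −0.20, and 67.7% of the folds were below 0. From the 10th to the 90th percentile the fold ran from −1.003 to 0.356. Median-ratio scaling moved the median to −0.01. Under that scaling the region nearest to Trim36 alone kept its call among the 9, at an adjusted p of 0.00608 by limma. The other 8 had log2 folds of −2.86 to −1.29 and adjusted p of 0.0690 to 0.145 by limma. Past the 2.5-fold rule there were 17 lower and 2 higher regions.

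The 9 called regions lay 2859 to 244543 bp from the nearest protein-coding start (median 35227, against 20785 over all regions). By the deposited annotation 7 were intergenic and 2 intronic, against 44.3% intergenic among all regions, and none overlapped another window. A basal PU.1 peak of C57 cells overlapped 1 of the 9, against 41.6% of all regions. No basal C/EBPb, STAT6 or PPARg peak overlapped any, against 20.8%, 28.3% and 6.84% of all regions. No basal EGR2 peak did either, which is near the 0.556% of all regions.

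The region nearest to Trim36, a ubiquitin ligase gene, was at chr18:46148682-46149682. It had 113 and 82.1 normalized tags in controls, and 20.1 and 22.98 in Egr2-deleted cells, from 133, 121, 20 and 41 reads. The 2 groups were far apart, and the log2 fold was −2.12 ± 0.26 (SE, adjusted p = 0.00208, limma). It passed in 7 of the 8 fits that left out 1 library, and without control basal replicate 1 the adjusted p was 0.0560. H3K4me2, a mark of open enhancers whether active or not, was 37.9 and 39.6 in controls, and 11.98 and 22.8 in Egr2-deleted cells there. Its log2 fold of −1.18 ± 0.36 did not pass (adjusted p = 0.225, limma).

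Cyp1b1 encodes a cytochrome P450 of steroids and polycyclic hydrocarbons, and its region lay 22798 bp upstream of the gene. Control libraries had 37.5 and 21.7 normalized tags, and Egr2-deleted libraries 4.01 and 1.68, from 4 and 3 reads. No called region had a lower fold, at −3.01 ± 0.52 (SE, adjusted p = 0.0240, limma). The site of this region is the one shown above with an EGR match near its 3′ end.

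Myl12b encodes a regulatory light chain of non-muscle myosin. Its region, 17375 bp downstream of the start, had 29.8 and 19.7 normalized tags in controls, and 3.01 and 4.48 in Egr2-deleted cells. Every control library was more than 4 times every Egr2-deleted library (log2 fold −2.43 ± 0.38, adjusted p = 0.0224, limma).

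Lrrc32 encodes GARP, which holds latent TGF-beta at the cell surface. Controls had 26.4 and 20.4 normalized tags at its region, and Egr2-deleted cells 3.01 and 6.17 (log2 fold −2.17 ± 0.36, adjusted p = 0.0224, limma). In Mtmr7, a gene of the myotubularin family of lipid phosphatases, the intronic region had 22.2 and 14.9 in controls, and 3.01 and 5.04 in Egr2-deleted cells (log2 fold −1.96 ± 0.34, adjusted p = 0.0248, limma). The region nearest to Mreg, a gene of pigment organelle transport, was 244543 bp away and had 60.5 and 44.1 in controls, and 23.1 and 12.3 in Egr2-deleted cells. The fold of −1.56 ± 0.29 was the smallest of the called regions with at least 16 normalized tags (adjusted p = 0.0390, limma).

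The region nearest to Gpr15, a chemoattractant receptor gene, lay in the body of Cpox, a haem synthesis gene, by GENCODE, and was listed as intergenic in the deposited annotation. It had 18.8 and 19.7 normalized tags in controls, and 3.01 and 5.04 in Egr2-deleted cells (log2 fold −2.04 ± 0.34, adjusted p = 0.0224, limma). After 24 h of IL-4 it had 55.3 and 66.2 in controls, and 58.2 and 48.2 in Egr2-deleted cells, which overlapped. The basal difference was thus not seen in the 24 h libraries, but the change between the times did not pass (interaction 1.85 ± 0.48 on the log2 scale, adjusted p = 0.167, limma).

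The other 2 called regions had fewer than 16 normalized tags in each mean and are named because they passed the test, a choice made after their values were seen. Atp8b1 encodes a phospholipid flippase, and its region had 12.8 and 17.7 in controls, and 3.01 and 1.12 in Egr2-deleted cells (log2 fold −2.46 ± 0.46, adjusted p = 0.0390, limma). Msx3 encodes a homeobox factor, and its region, 2859 bp from the start, had 18.8 and 12.9 in controls, and 4.01 and 6.17 in Egr2-deleted cells (log2 fold −1.47 ± 0.28, adjusted p = 0.0390, limma). At 24 h the same region stood the other way, with 210 and 229 in controls, and 291 and 304 in Egr2-deleted cells. The interaction of 1.90 ± 0.39 had the smallest adjusted p of all regions, 0.0838, and did not pass (limma). Some called regions matched open chromatin within 250 bp in C57 BMDMs, whose Egr2 is intact. Basal H3K27ac of C57 was 6.78 and 4.28 at Gpr15, and 4.07 and 5.70 at Msx3. At these regions C57 was near the Egr2-deleted values and below both Egr2fl/fl libraries. It was 31.2 and 4.28 at Myl12b, and 13.6 and 34.9 at Mreg. The other called regions had no match, and the cause of these differences was not tested.

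Leaving out 1 library changed which of these regions passed. Without control basal replicate 1, 0 regions passed (321 at an unadjusted p under 0.05), and without control basal replicate 2, 38 lower and 2 higher passed, 8 of the 9 among them. Without Egr2-deleted basal replicate 1 there were 5, and without replicate 2 there were 20 lower and 1 higher. Leaving out a 24 h library gave 1 for either control and 6 for either Egr2-deleted library.

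**Figure D2:**
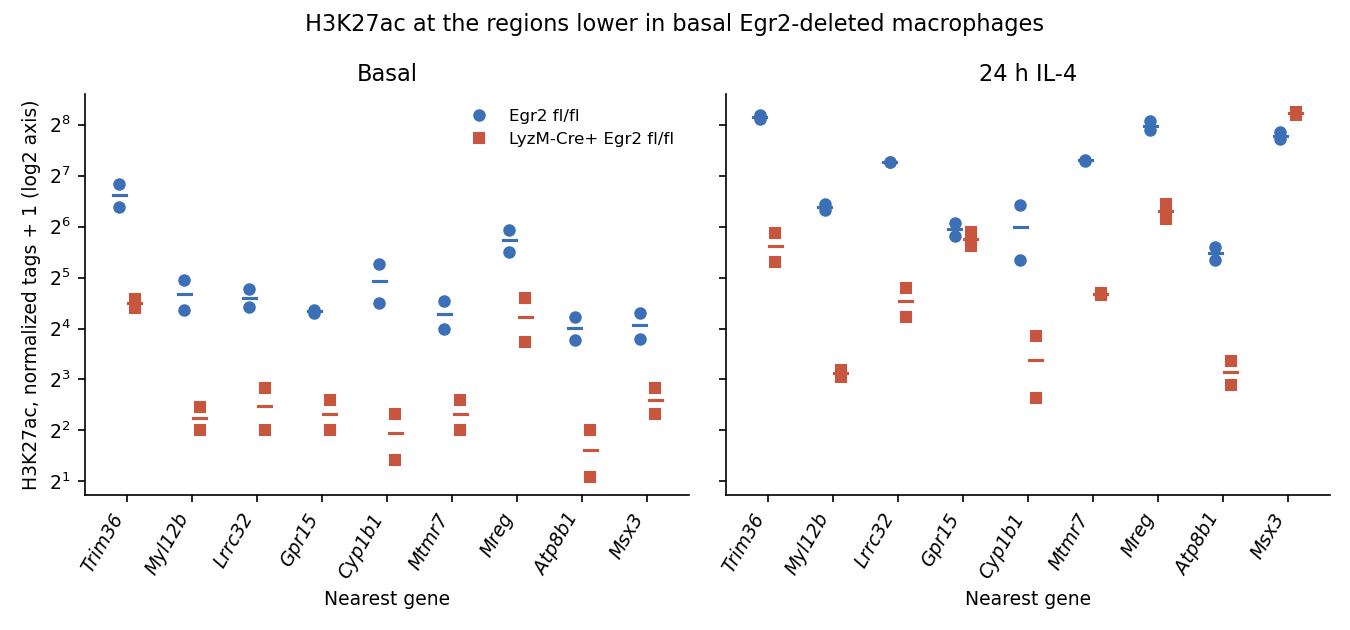
H3K27ac in each library at the 9 regions called lower in basal Egr2-deleted cells, as normalized tags + 1 on a log2 axis, named by the nearest gene. Circles are Egr2fl/fl, squares LyzM-Cre+ Egr2fl/fl and bars group means of 2 libraries. In the basal panel all squares lie below all circles, as the call favours, and in the 24 h panel the groups of Gpr15 overlap and those of Msx3 are reversed.

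Falls were also named among the regions with at least 16 normalized tags and libraries that did not overlap. The 7 called regions above came first, and the 3 largest falls of the regions that did not pass limma were added to make 10. Ptk2 encodes focal adhesion kinase, and its region had 28.97 and 11.5 normalized tags in controls, and 2.01 and 2.80 in Egr2-deleted cells (log2 fold −2.52 ± 0.50, adjusted p = 0.0536, limma, and 0.0406 by edgeR). At the region near Met, the hepatocyte growth factor receptor gene, the values were 41.8 and 33.3, and 2.01 and 16.3 (log2 fold −2.41 ± 0.58, adjusted p = 0.0868, limma). Its Egr2-deleted libraries differed more from each other than its control libraries did. An intronic region of Zfhx3, which encodes a zinc finger homeobox factor, had 23.01 and 10.2, and 0 and 6.17 (log2 fold −2.61 ± 0.89, adjusted p = 0.230, limma). By fold alone a region near Pzp, a protease inhibitor gene, would stand before Mreg, and it is given after its values were seen. It had 25.6 and 6.79 in controls, and 2.01 and 2.80 in Egr2-deleted cells (log2 fold −2.09, adjusted p = 0.160, limma). Matched basal C57 libraries had 2.04 and 1.43 at Ptk2, 8.82 and 18.5 at Met, and 2.71 and 1.43 at Zfhx3. These were all below both Egr2fl/fl libraries.

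No higher region passed, and the 10 largest rises by the same rule had log2 folds of 0.74 to 1.49. Tmem267 held the region past the 2.5-fold rule, with 12.8 and 9.50 normalized tags in controls, and 61.2 and 17.4 in Egr2-deleted cells (log2 fold 1.49 ± 0.50, adjusted p = 0.228, limma). Most of that difference was in 1 library, Egr2-deleted replicate 1, which also stood apart in H3K4me2 (105, against 35.03 in replicate 2 and 27.9 and 26.4 in controls). At a Cbx7 region, in a gene of the Polycomb group, the libraries lay closer, with 37.5 and 35.97 in controls, and 70.2 and 62.8 in Egr2-deleted cells (log2 fold 0.84 ± 0.28, adjusted p = 0.228, limma). The sialyltransferase gene St3gal4 held a region with 13.6 and 10.2, and 25.1 and 21.3 (log2 fold 0.91 ± 0.35, adjusted p = 0.291, limma). The other 7 were nearest to Adcy9, Mlh3, Rcbtb2, Bahcc1, Ppp3ca, Sae1 and Rcc1, with adjusted p of 0.267 to 0.639.

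The region with the highest basal level of all, 40430 bp from the chemokine receptor gene Ccr1, had 727 and 973 normalized tags in controls, and 745 and 966 in Egr2-deleted cells. Its log2 fold was 0.01 ± 0.21 (adjusted p = 0.988, limma).

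The basal values were then set beside the same regions after 24 h of IL-4, which used 4 other libraries of the same genotypes. At 24 h limma called 1087 regions lower (23.2%) and 66 higher (1.41%) in Egr2-deleted cells, with a median log2 fold of −0.50. Of the 9 regions lower at basal, 7 were also lower at 24 h, and of the 37 lower by the 2.5-fold rule, 32 were (86.5%). The median 24 h log2 fold of those 37 was −2.31. Both times shared 1 estimate of the spread, and the folds came from separate libraries.

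Seen from the 24 h side, the 1087 regions lower at 24 h had a median basal log2 fold of −0.52, and 59.7% of them had basal libraries that did not overlap and were lower in Egr2-deleted cells. The 66 regions higher at 24 h had a median basal log2 fold of 0.21, and 36.4% had basal libraries that were all higher. The 3524 regions not called at 24 h had a median of −0.11, with 24.6% lower and 9.02% higher in this sense. Under median-ratio scaling the 3 basal medians were −0.34, 0.42 and 0.08, so that the last of them changed sign.

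Across the 2406 regions with at least 16 normalized tags, the basal and 24 h log2 folds had a Pearson correlation of 0.66 and a Spearman correlation of 0.62, and across all 4677 regions 0.41 and 0.42. The points share genotype, site and base composition, and regions are not replicates. The 24 h log2 fold was the more negative at the median region, with a median interaction of −0.27. For that interaction limma called 0 regions, with 615 under 0.05 before adjustment. The count by edgeR was 0, and DESeq2 called 2, both with a higher fold at 24 h. The number of regions unlike between the times was 60 with a pseudocount of 5 in place of 1, of which 58 had a lower fold at 24 h. It was 16, all with a lower fold at 24 h, without Egr2-deleted 24 h replicate 2, 8 without Egr2-deleted basal replicate 2 and 1 without control basal replicate 2.

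**Figure D3:**
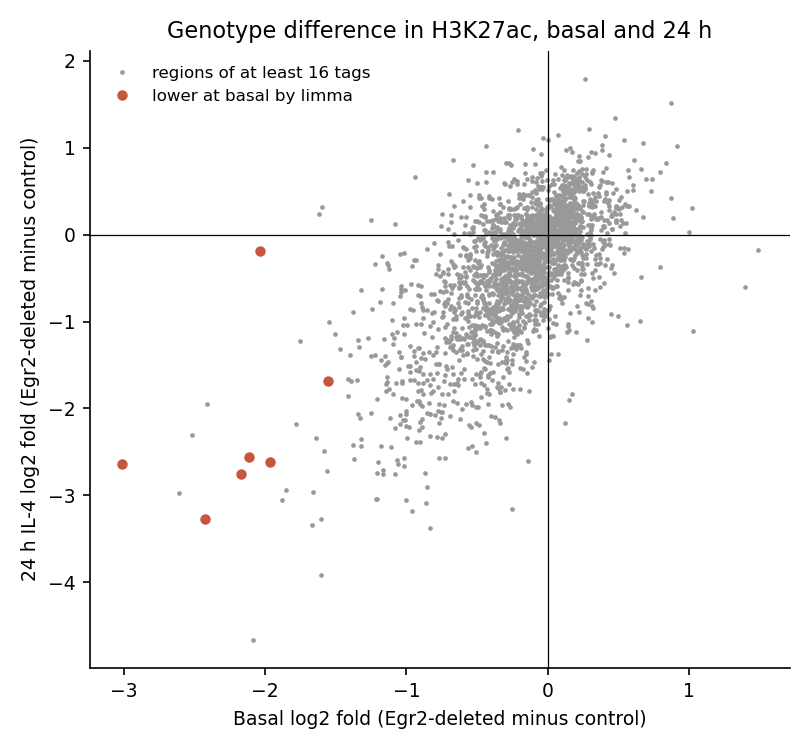
Log2 fold of H3K27ac (Egr2-deleted minus control) at basal, on the x axis, and after 24 h of IL-4, on the y axis, at the 2406 regions with at least 16 normalized tags in either basal mean. Filled points are the 7 called basal regions among them, and 6 of these lie below −1 on both axes, while Gpr15 lies near 0 at 24 h.

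Regions were grouped by the peaks and levels measured in C57 BMDMs, which are none of these 4 libraries. The basal difference was larger where fewer factors had a basal peak. With none of PU.1, C/EBPb, STAT6 and PPARg the median log2 fold was −0.31 (n = 2410), with 1 it was −0.22 (n = 863), with 2 −0.13 (n = 652), and with 3 −0.06 (n = 613). Regions with all 4 had a median of −0.00 (n = 139). Of the 37 regions past the 2.5-fold rule, 30 had none of the 4 peaks, 6 had 1 and 1 had 2. Regions with at least 16 normalized tags, which the rule requires, numbered 780, 463 and 504 in these groups.

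For single factors the medians were −0.11 with and −0.29 without a PU.1 peak, −0.09 and −0.24 for C/EBPb, −0.06 and −0.29 for STAT6, and −0.05 and −0.22 for PPARg. Under median-ratio scaling they were 0.09 and −0.11 for PU.1, 0.11 and −0.06 for C/EBPb, 0.15 and −0.11 for STAT6, and 0.16 and −0.03 for PPARg, so the sign turned in every group with a peak. A basal STAT6 peak overlapped 1 of the 37 regions past the rule (2.70%), against 28.3% of all regions, and a PU.1 peak overlapped 7 (18.9%), against 41.6%. C/EBPb and PPARg peaks overlapped 0 of the 37, against 20.8% and 6.84%. The rule admitted only the 2406 regions with at least 16 normalized tags. Of these, 1112 had a STAT6 peak, 1390 a PU.1 peak, 800 a C/EBPb peak and 273 a PPARg peak. The 26 regions with a basal EGR2 peak had a median of −0.15, and the 4651 others −0.20.

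The same regions differ in level, which moves with this order. Median control normalized tags were 6.89 with none of the 4 factors and 98.3 with all 4, and the part of the level in the order was not tested. With only regions of at least 16 normalized tags the medians from 0 to 4 factors were −0.27, −0.16, −0.11, −0.05 and 0.00. Under median-ratio scaling they were −0.14, −0.03, 0.07, 0.14 and 0.20, so the order stayed and the sign changed from 2 factors on.

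Basal H3K27ac of C57 cells could be matched for 2830 regions, by an open chromatin region within 250 bp. They were divided by that level into 4 bins of equal size. In the lowest bin the median log2 fold was −0.44 (n = 708), in the next −0.40 (n = 707), then −0.19 (n = 707), and in the highest bin 0.01 (n = 708). Under median-ratio scaling the 4 medians were −0.29, −0.21, 0.02 and 0.22, so the order stayed and the sign turned in the third bin. The 1847 regions with no match had a median of −0.22. Regions lower by the 2.5-fold rule numbered 12, 12, 2 and 0 in the 4 bins and 11 without a match. The bins held unlike numbers of regions with at least 16 normalized tags, which the rule requires. These were 56, 397, 685 and 708, and 560 without a match. Their medians were −0.89, −0.43, −0.19 and 0.01, and −0.12. In the lowest bin, with a C57 median of 2.1 tags, the filter keeps regions that were higher in these libraries, and its part was not tested.

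**Figure D4:**
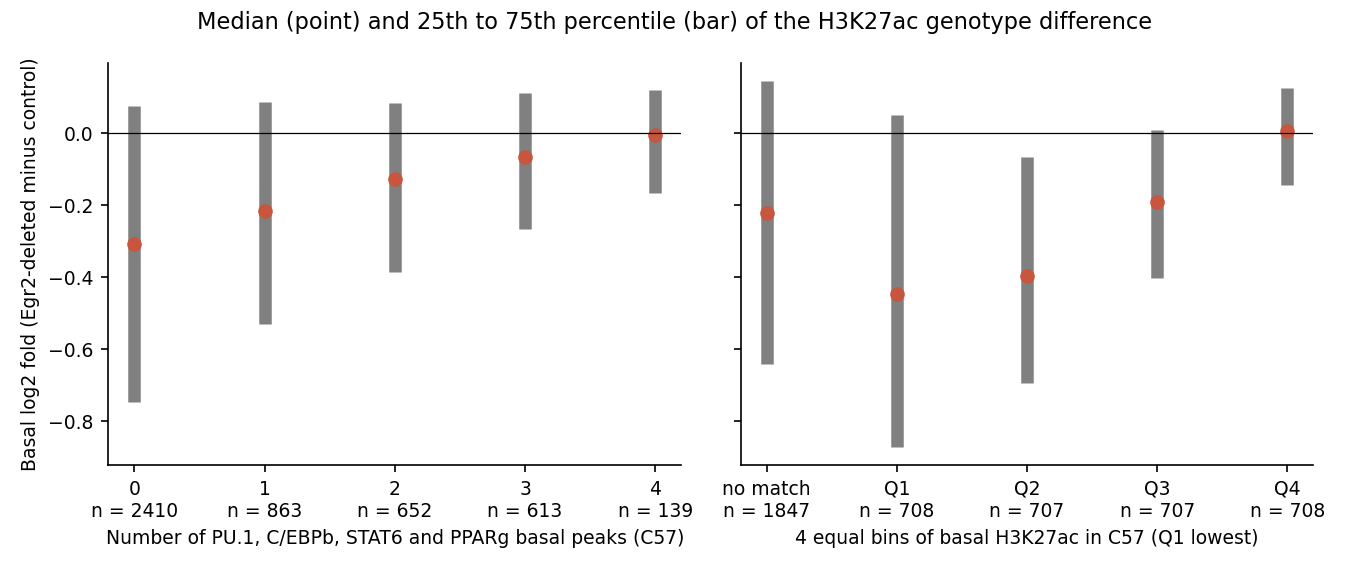
Basal log2 fold of H3K27ac (Egr2-deleted minus control) in groups of regions, with the median as a point and the range between the 25th and 75th percentiles as a bar. On the left the groups are the number of C57 basal factor peaks, and on the right 4 bins of C57 basal H3K27ac (Q1 lowest). Medians move from −0.31 to −0.00 on the left and from −0.44 to 0.01 over the bins on the right, and under median-ratio scaling from −0.14 to 0.20 and from −0.29 to 0.22.

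By EGR2 tags in C57 cells the medians gave no such order. In 4 bins of basal EGR2 tags the medians were −0.21, −0.19, −0.19 and −0.20, from the lowest to the highest. Bins of EGR2 tags at 24 h gave −0.20, −0.16, −0.21 and −0.23. Non-overlapping lower regions rose from 30.2% in the lowest to 35.8% in the highest basal bin, and higher regions were 8.55% and 7.44%. For 24 h tags these were 30.5% and 36.1%, and 7.69% and 7.70%. Lower regions by the 2.5-fold rule numbered 5, 8, 13 and 11 in the basal bins, and 4, 8, 13 and 12 at 24 h. In each set of bins 1 region was higher. Regions with at least 16 normalized tags numbered 443, 573, 671 and 719, and 525, 575, 655 and 651, and their part was not tested. By the times of the EGR2 peak, regions with a peak at 24 h alone had −0.21 (n = 3870), with 6 h and 24 h −0.17 (n = 650), with 1 h, 6 h and 24 h −0.14 (n = 120), and with 1 h and 24 h −0.03 (n = 37). These medians were closer to 0 where a peak was also present at an earlier time. Median control tags of the same groups were 14.7, 25.8, 47.6 and 40.3. Under median-ratio scaling the medians were −0.02, 0.03, 0.06 and 0.17. Intergenic regions had −0.22 and intronic regions −0.19. Of the 37 past the rule 21 were intergenic (56.8%), against 44.3% of all regions and 1027 of the 2406 with at least 16 normalized tags.

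Other marks were read at the same regions in basal cells. For H3K4me2 limma called 4 regions lower (0.0855%) and 0 higher, and 239 regions had an unadjusted p under 0.05. The number lower was 4 by edgeR and 0 by DESeq2. The median log2 fold was −0.08. None of the 4 was among the 9 called for H3K27ac. Both Egr2-deleted libraries were below both controls in H3K4me2 at 20.2% of all regions and above both at 9.04%. Leaving out 1 library, 0 regions passed without control basal replicate 1, 1 without Egr2-deleted basal replicate 1, 10 without Egr2-deleted basal replicate 2 and 2 without either control library of 24 h.

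The 4 regions were named because they passed, after their values were seen. An intron of Matk, a kinase gene of the Csk family, held 2 overlapping regions, and the called one had H3K4me2 values of 14.4 and 15.7 in controls, and 1.41 and 3.50 in Egr2-deleted cells (log2 fold −2.29 ± 0.47, adjusted p = 0.00553, limma). The region near S100a11, a calcium-binding protein gene, had 24.3 and 13.8, and 2.11 and 4.38 (log2 fold −2.24 ± 0.48, adjusted p = 0.00553, limma). H3K27ac at these 2 regions was also lower in both Egr2-deleted libraries, with log2 folds of −1.49 and −1.60 that did not pass (adjusted p = 0.267 and 0.131, limma). At Mad1l1 and Chic2, the other two, H3K27ac was at most 5.96 normalized tags in every basal library, too low for a comparison at this depth.

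At the 37 regions past the H3K27ac fold rule, the median H3K4me2 was 25.2 and 25.1 in controls, and 16.9 and 18.4 in Egr2-deleted cells. There 15 regions had non-overlapping lower H3K4me2 libraries (40.5%) and 0 non-overlapping higher, against 20.2% and 9.04% of all regions. Over all regions the H3K4me2 medians were 30.6 and 32.1 in controls, and 27.5 and 32.4 in Egr2-deleted cells. For PU.1 the medians at these 37 were 9.35 and 7.82, and 4.82 and 4.88. For C/EBPb they were 6.51 and 14.7, and 2.18 and 4.12. The C/EBPb control libraries also differed from each other, with 4.56 and 10.6 at the median of all regions, against 2.91 and 5.15 in Egr2-deleted cells, and over all regions PU.1 had 10.2 and 9.91, against 8.68 and 8.94. STAT6 medians were 3.09 and 1.20, and 2.23 and 1.84, which overlapped. Over all regions they were 4.12 and 2.39, and 3.34 and 2.75. PPARg medians were 0 in all 4 libraries. RNA polymerase II, with 1 library per genotype and no replicate check, had a median of 5.84 in control and 0.65 in Egr2-deleted cells, against 8.35 and 7.15 over all regions.

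Regions were also counted by the gene of the nearest start, in lists of pathway genes. Median-ratio scaling raises each list's median by about the shift of all regions, to −0.18 for IL-4 response genes, −0.02 for lineage and AP-1 factors, 0.17 for inflammatory genes and 0.22 for lipid and lysosome genes. Of 50 IL-4 response genes, 30 had at least 1 region, 70 regions in all, and their median log2 fold was −0.39, against −0.20 over all regions. For the 29 of them with at least 16 normalized tags it was −0.18, against −0.14 over all regions of that level, so the gap lay mostly in regions of low level. By limma 1 was lower, that of Msx3, and 0 higher. Libraries did not overlap at 29 in the lower direction (41.4%) and at 3 in the higher (4.29%), against 32.5% and 7.87% of all regions. A region 38962 bp from Irf4, which encodes a transcription factor of alternative activation, had 13.6 and 20.4 normalized tags in controls, and 7.02 and 4.48 in Egr2-deleted cells (log2 fold −1.41 ± 0.39, adjusted p = 0.131, limma). Upstream of Mmp12, the macrophage elastase gene, 57.9 and 63.8 stood against 29.1 and 30.3 (log2 fold −1.01 ± 0.23, adjusted p = 0.0762, limma). The control libraries of both genes were above the Egr2-deleted libraries, and neither passed. Matched basal C57 libraries had 9.50 and 10.7 at the Irf4 region, and 13.6 and 29.95 at the Mmp12 region. These were also below both Egr2fl/fl libraries.

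In Itgax, which encodes the integrin CD11c, a region had 17.04 and 19.7 in controls, and 7.02 and 12.3 in Egr2-deleted cells (log2 fold −0.90 ± 0.37, adjusted p = 0.331, limma). At 24 h it had 96.5 and 86.7, and 21.8 and 12.8, which passed (log2 fold −2.38, adjusted p = 0.000431, limma), and its interaction did not (adjusted p = 0.226, limma). The region of Myc named by the rule, 147621 bp away, had 34.9 and 34.6, and 22.1 and 17.9 (log2 fold −0.78 ± 0.28, adjusted p = 0.278, limma).

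The EGR family and the NAB corepressors, which bind EGR factors, had 4 regions for 4 of 7 genes, none called. Egr3 had 289 and 297 normalized tags in controls, and 280 and 309 in Egr2-deleted cells (log2 fold 0.01 ± 0.20, adjusted p = 0.995, limma). A region 23832 bp from Egr1 had 56.2 and 62.5, and 35.1 and 38.7, which did not overlap and did not pass (log2 fold −0.67 ± 0.22, adjusted p = 0.228, limma).

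Macrophage lineage and AP-1 factor genes had 71 regions for 21 of 32 genes, with a median log2 fold of −0.20, the same as over all regions, and none called. Libraries did not overlap at 23 in the lower (32.4%) and at 10 in the higher direction (14.1%), against 32.5% and 7.87% of all regions. Spi1 encodes PU.1, and the region named had 29.8 and 29.2 in controls, and 11.03 and 16.8 in Egr2-deleted cells (log2 fold −1.06 ± 0.34, adjusted p = 0.204, limma). Runx1 encodes a blood lineage factor, and an intronic region had 17.9 and 20.4, and 7.02 and 10.7 (log2 fold −1.06 ± 0.33, adjusted p = 0.193, limma). For Bhlhe40, which encodes a basic helix-loop-helix repressor, 2 regions had log2 folds of −0.83 and −0.81 (adjusted p = 0.368 and 0.393, limma).

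Inflammatory cytokine, chemokine and NF-kB genes had 26 regions for 14 of 40 genes, with a median of −0.04 and none called, and 7 were non-overlapping lower (26.9%) and 3 higher (11.5%), against 32.5% and 7.87% of all regions. A region upstream of the chemokine gene Ccl4 had 34.9 and 36.7 in controls, and 53.2 and 65.0 in Egr2-deleted cells (log2 fold 0.70 ± 0.25, adjusted p = 0.265, limma). In Nfkb1, the gene of the NF-kB subunit p50, 1 region had 25.6 and 23.8, and 37.1 and 28.03 (log2 fold 0.38 ± 0.26, adjusted p = 0.641, limma). At 24 h this region had 103 and 92.5, and 60.3 and 67.9, the opposite order, and the interaction did not pass (−0.97 ± 0.37, adjusted p = 0.260, limma). A second Nfkb1 region stood lower in Egr2-deleted cells, with 42.6 and 40.7 in controls, and 31.1 and 35.3 (log2 fold −0.32 ± 0.35, adjusted p = 0.789, limma). Upstream of Tlr4, the lipopolysaccharide receptor gene, the groups overlapped, with 58.8 and 27.15, and 30.1 and 32.5 (log2 fold −0.35 ± 0.32, adjusted p = 0.745, limma).

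Lipid, lysosome and phagocytosis genes had 27 regions for 15 of 30 genes, with a median of 0.01, none called, and 6 non-overlapping lower (22.2%) and 2 higher (7.41%), against 32.5% and 7.87% of all regions. A region near Lamp2, a lysosomal membrane protein gene, had 28.97 and 23.1 in controls, and 9.03 and 13.5 in Egr2-deleted cells (log2 fold −1.16 ± 0.32, adjusted p = 0.131, limma). In the tetraspanin gene Cd9, 2 overlapping regions had log2 folds of −0.97 and −0.73 (adjusted p = 0.160 and 0.193, limma). Near Abca1, the cholesterol exporter gene, the values were 18.8 and 15.6, and 9.03 and 10.7 (log2 fold −0.74 ± 0.36, adjusted p = 0.424, limma).

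**Figure D5:**
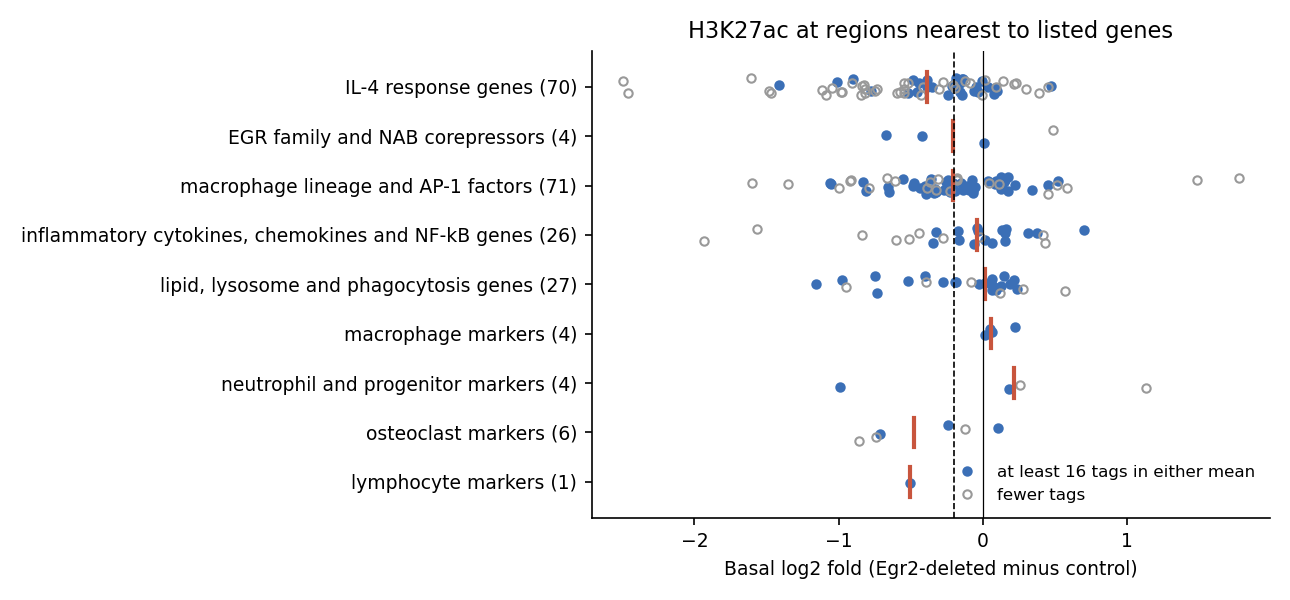
Basal log2 fold of H3K27ac (Egr2-deleted minus control) at each region whose nearest gene start belongs to a list, with the number of regions in brackets. Filled points have at least 16 normalized tags in either mean, the short line is the list's median and the dashed line the median of all regions, −0.20. The IL-4 response genes have a median of −0.39, and the lipid, lysosome and phagocytosis genes 0.01, which under median-ratio scaling were −0.18 and 0.22.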

How the data were processed

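H3K27ac, H3K4me2, RNA polymerase II and transcription factor ChIP-seq libraries of Egr2fl/fl and LyzM-Cre+ Egr2fl/fl BMDMs were used. The authors aligned reads with Bowtie2 and counted tags with HOMER on mm10, in windows of 1000 bp (histones, polymerase) or 300 bp (factors) around each EGR2 site, and deposited them as a signal scaled to 10000000 tags per library. Each deposited signal value multiplied by its library total gave whole reads for 100% of 243204 values (within 0.1 read), which were the counts for edgeR and DESeq2. Read counts carry counting error, and amplified copies are not independent molecules. Peak lists deposited by the authors, which also hold a score, gave positions only. Annotation classes came from the deposited EGR2 time course, and nearest starts from GENCODE vM21 protein-coding transcripts. 4 columns that matched no labelled sample were not used.

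Log2(normalized tags + 1) was fitted with limma 3.58.1 (trend, 4 groups of 2 libraries, no filter) over all 4677 regions, with Benjamini-Hochberg adjustment. Alternatives were edgeR 4.0.16, DESeq2 1.42.0, a pseudocount of 5, a filter of 16 normalized tags, median-ratio scaling, a replicate block and each library left out. Tested on simulated reads of the 4677 regions with 200 changed, limma recovered 23.5% of 2-fold and 85% of 4-fold changes, with 0 and 8 false calls. The simulated levels were means over the basal and 24 h H3K27ac libraries, and regions of very low mean were not among the changed. Recovery at basal levels alone was not simulated. P-values measure the spread between these libraries, which may be technical in part.

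Named regions were the 10 largest falls and rises with at least 16 normalized tags in either basal mean and libraries that did not overlap (called regions first), up to 4 per gene list by absolute fold, those nearest to Egr2, and the highest. Members and lists were chosen with earlier results of these data known. Sequences are from RefSeq's GRCm38.p6.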

Additional observations from a re-analysis of the deposited data

How the results depend on the processing

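The 9 regions lower in basal H3K27ac became 4 with a pseudocount of 5, 1 with median-ratio scaling, 1 with DESeq2 and 0 with the basal libraries only (472 at an unadjusted p under 0.05). They were 10 with a filter of 16 normalized tags and 11 with edgeR. Leaving out 1 library gave 0 to 40 regions. For the interaction with IL-4, 0 regions became 60 with a pseudocount of 5 and 2 with DESeq2, and 0 to 16 without 1 library. For H3K4me2, 4 regions became 2 with a pseudocount of 5, 2 with basal libraries only, and 0 each with the filter, median-ratio scaling and DESeq2, and 0 to 10 without 1 library. The 38 regions past the 2.5-fold rule were 108 at a fold of 2, 18 with a pseudocount of 5, 19 with median-ratio scaling, 230 with no filter on level, and 30 (18 lower and 12 higher, without Egr2fl/fl basal replicate 1) to 105 (101 and 4) without 1 library. The median log2 fold of means, −0.20, was −0.14 with a pseudocount of 5, −0.13 over regions of at least 16 normalized tags, −0.0027 with median-ratio scaling, and −0.24 to −0.16 without 1 library. Where an arm was left with 1 library it was assumed to vary like the others. The causes were not tested.

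With the replicate number as a block, 85 regions passed for H3K27ac (82 lower and 3 higher, all 9 among them), 72 for the interaction and 2 for H3K4me2. The labels do not say that equal numbers mark shared animals or days, and with 2 numbers there are too few pairs to read a pairing from the data. Over the regions, deviations of same-numbered libraries correlated at 0.094 to 0.20 in the 6 pairs of H3K27ac groups (0.098 for the basal groups) and at 0.077 to 0.20 for H3K4me2 (0.17 basal). The numbers were therefore not read as pairs, and the counts with the block depend on that choice.

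No region called for H3K27ac changed direction under these settings. Uncalled regions did when 1 library was left out, with log2 folds of −0.065 to 0.077 for Egr3, −0.89 to 0.20 for Tlr4, −0.26 to 0.36 for Csf1r, −0.14 to 0.27 and −0.15 to 0.18 for the Ctss regions, −0.060 to 0.42 for Kit, −0.020 to 0.23 for Ctsk, −0.20 to 0.22 for Ccr1, and, at the low levels of the regions called for H3K4me2, −0.44 to 0.46 for Mad1l1 and −0.44 to 1.56 for Chic2. At these depths, with levels averaged over basal and 24 h libraries, limma recovered 23.5% of simulated 2-fold changes. A region not called may therefore still differ by that much.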
